A study of Homo sapiens with 38 samples.

Results

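FOXD3, a forkhead transcription factor, and FOXD3-AS1, an RNA read from the opposite strand of the same locus, were followed through 3 time courses in H9 human embryonic stem cells. The members are the 2 rows of the gene table that carry these names, out of 43412 genes. They were chosen from a readout of these same libraries, so their levels and differences are given as a description, without a test. In 1 arm, H9 cells received 10 µM CHIR99021, a small molecule that inhibits GSK3 and so stabilises beta-catenin, and were collected at 0, 8, 16, 24, 48 and 72 h. In another, H9 cells received 240 ng/ml recombinant Wnt3a, a Wnt ligand, and were collected at 0, 8, 24, 48, 72, 96 and 120 h. A further arm, called bcat here, used H9 cells with a stably integrated, doxycycline-regulatable deltaN90 beta-catenin, a form of the protein that lacks its amino terminus and escapes degradation. These received 1 µg/ml doxycycline and were collected at 0, 8, 16, 24, 48 and 72 h. The uninduced cells of that line carry the construct too, and the labels do not say whether the line was 1 clone. In all arms the cells moved from mTeSR1 stem cell medium into RPMI1640 with B27 lacking vitamin A when treatment began, and medium and agent were renewed daily. No culture with the medium change alone was analysed here, so treatment, medium and elapsed time cannot be told apart in any comparison with 0 h.

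Total RNA was sequenced from 2 libraries per group. The labels number the replicates, and the titles of the treated Wnt3a libraries call them biological. They do not say whether the replicates came from separate cultures, so how much of the spread between them is technical is not known. The columns of the 2 Wnt3a libraries at 72 h held identical values and were counted as 1 library, which left 37 libraries in 19 groups. Estimated counts per library summed to 2.45 M to 65.7 M (M, mega), with a median of 19.0 M. Levels are given as CPM, counts scaled by library size with edgeR's TMM factors. Doubt attaches to 4 libraries. The Wnt3a 0 h replicate 1 and the bcat 0 h replicate 1 were shallow, at 2.45 M and 4.44 M counts. The bcat 0 h replicate 1, 24 h replicate 1 and 48 h replicate 2 gave 34.1%, 60.4% and 60.3% of their counts to ribosomal RNA of the cytosol, where the median library gave 5.13%. All 6 genes of a stem cell marker list fixed for this work were detected in every group, and their summed level lay between 4489 and 4574 CPM at 0 h of the CHIR99021 arm, 4744 and 5696 CPM at 0 h of the Wnt3a arm and 3929 and 4504 CPM at 0 h of the bcat arm.

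FOXD3 is best known as a repressor and pioneer factor that embryonic stem cells need to stay undifferentiated, from work in mouse, and as an early specifier of the neural crest in vertebrate embryos. When a Wnt ligand binds its receptors, GSK3 no longer marks beta-catenin for destruction. Beta-catenin then enters the nucleus and joins TCF and LEF proteins on the DNA of target genes. In pluripotent cells this pathway leads towards primitive streak, mesoderm and endoderm, and at other doses and times towards neural crest. Antisense RNAs that begin beside the start of a transcription factor gene often share its promoter region.

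Both genes lie on chromosome 1 at band 1p31.3. In GENCODE release 29 on GRCh38, FOXD3 (ENSG00000187140.5) is a protein-coding gene at chr1:63323041-63325126 on the plus strand, with 1 exon of 2086 bases. FOXD3-AS1 (ENSG00000230798.5) is annotated as antisense at chr1:63320884-63324441 on the minus strand, with 5 transcripts and 1208 exonic bases. The exons of the pair share 179 bases, which is 14.8% of the antisense exons and lies in 2 of its transcripts. The library kit was stranded per the labels, but whether strand was used when reads were assigned is not given in the sources used here, so reads from those shared bases cannot be told apart if it was not.

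**Figure D1:**
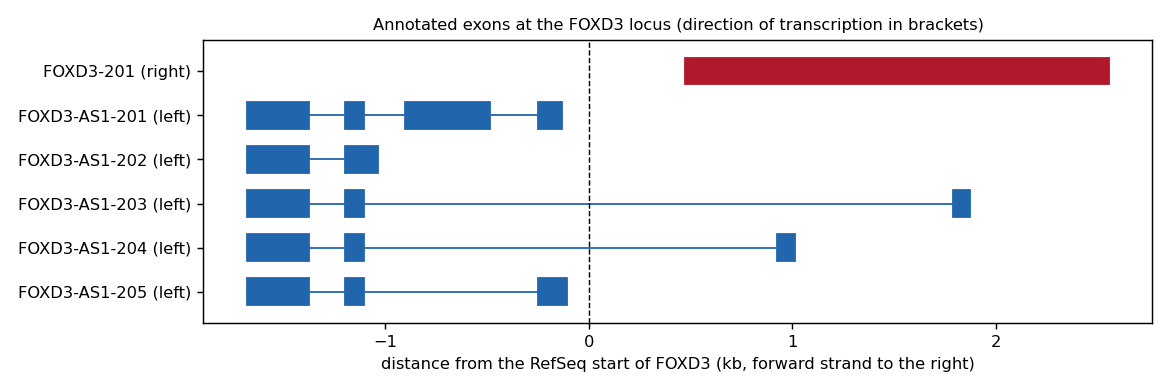
Exons of FOXD3 and of the 5 FOXD3-AS1 transcripts, drawn to scale along the distance in kb from the RefSeq start of FOXD3, with the direction of each transcript. FOXD3 is 1 exon on the plus strand, the 5 antisense transcripts run leftwards, and 2 of them begin inside the FOXD3 exon.

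RefSeq places the start of FOXD3 at base 63322567 of chromosome 1 and that of FOXD3-AS1 at base 63322458, with 108 bases between them, so by these starts the genes point away from each other, and the 300-base promoter windows of the pair share 208 bases. The bases just upstream of FOXD3 are shown because this stretch holds the start of FOXD3-AS1 and leads up to that of FOXD3, and because both genes were lower than at 0 h at the last time of all 3 treatments. The sequence is RefSeq's, build GRCh38.p14, plus strand, chr1:63322317-63322566. The capitals mark a match to CTTTGNT, with N any base, which is a loosened form of the core that TCF and LEF proteins prefer.
FOXD3 upstream: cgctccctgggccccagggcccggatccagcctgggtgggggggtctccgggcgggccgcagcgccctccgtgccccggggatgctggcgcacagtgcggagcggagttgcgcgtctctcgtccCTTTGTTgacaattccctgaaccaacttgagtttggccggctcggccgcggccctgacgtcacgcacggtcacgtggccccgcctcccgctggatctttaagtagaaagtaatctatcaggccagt
The match lies at chr1:63322441-63322447, 126 bases upstream of the FOXD3 start, and is the only one on either strand. A match to CTTTGNT is common, being present in 4637 of 35116 RefSeq promoter stretches of the same length, or 13.2%. The stricter form CTTTGAT, which CTTTGNT contains, was not in this window and is in 2.26% of promoters, and the octamer ATTTGCAT that POU factors prefer was not in it either and is in 1.63%. These are letters in a window and no measurement of binding was made.

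FOXD3 was far lower under CHIR99021 within the first 8 h and close to undetected from 48 h. Its level was 19.1 and 19.9 CPM in the 0 h libraries, 2.96 and 2.56 CPM at 8 h, 1.05 and 1.23 CPM at 16 h, 0.797 and 1.66 CPM at 24 h, 0.0344 and 0 CPM at 48 h and 0.116 and 0 CPM at 72 h. Every treated library was below both 0 h libraries, and no treated library exceeded 2.96 CPM. The fitted log2 difference from 0 h was -2.81 ± 0.29 (SE, n = 2 each) at 8 h, -4.06 ± 0.33 at 16 h and -3.85 ± 0.32 at 24 h. The libraries at 16 and 24 h overlapped. At 48 h the 2 libraries held 1 FOXD3 count between them, against 1050 counts at 0 h, which is 929-fold lower for its share of the counts, with a 95% counting interval of 166 to 36729. At 72 h all 6 counts came from replicate 1, and the fitted log2 difference was -7.66 ± 0.44, or -8.30 with the deposited values not divided by their library constants. The 95% counting interval at 72 h was 96.7 to 577-fold lower, so this SE is smaller than counting error alone would give. These intervals cover counting error only. Without the 24 h replicate 2 the 24 h difference was -4.60, and without the 72 h replicate 1 no count remained at that time.

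FOXD3-AS1 followed the same direction under CHIR99021, with a smaller difference at 8 h. It stood at 46.2 and 47.2 CPM at 0 h, 22.2 and 22.2 CPM at 8 h, 8.03 and 7.77 CPM at 16 h, 4.98 and 5.30 CPM at 24 h, 0 and 0 CPM at 48 h and 0.347 and 0.465 CPM at 72 h. The 2 libraries of each time lay close together, and the levels at successive times up to 48 h did not overlap. The log2 difference from 0 h was -1.07 ± 0.17 at 8 h, -2.57 ± 0.19 at 16 h, -3.17 ± 0.20 at 24 h and -6.94 ± 0.27 at 72 h. No count was seen at 48 h, against 2513 counts at 0 h, so the antisense RNA was at least 741-fold lower there, taking 3 counts over the 2 libraries as the limit that a count of 0 allows. Both 72 h libraries of FOXD3-AS1 were above those at 48 h, whereas the FOXD3 libraries of these times overlapped.

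**Figure D2:**
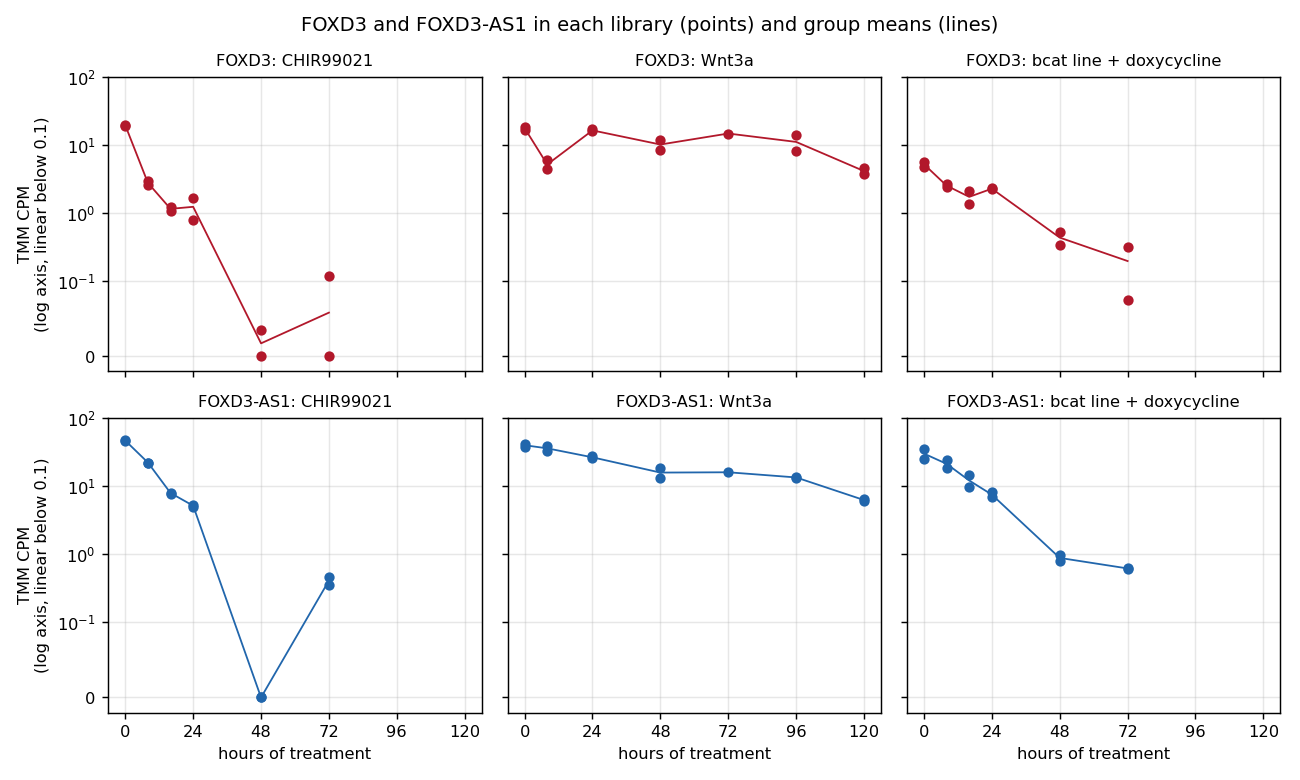
Level of FOXD3 (upper row) and FOXD3-AS1 (lower row) in CPM against hours of treatment in the 3 arms. Each point is 1 library and lines join the group means. The axis is logarithmic and linear below 0.1 CPM so that libraries at 0 are shown. FOXD3 is back at 16.9 and 15.8 CPM at 24 h of Wnt3a after 4.39 and 5.91 CPM at 8 h, while in the other arms it stays below its 0 h level at 24 h.

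Under Wnt3a, FOXD3 was low at 8 h, back near its starting level at 24 h and low again at 120 h. Its level was 16.8 and 18.5 CPM at 0 h, 4.39 and 5.91 CPM at 8 h, 16.9 and 15.8 CPM at 24 h, 8.38 and 11.9 CPM at 48 h, 14.7 CPM in the 1 library at 72 h, 14.0 and 8.13 CPM at 96 h and 4.52 and 3.71 CPM at 120 h. The libraries at 8 and 120 h lay below all the others of the arm, and the 24 h libraries overlapped those at 0 h. The log2 difference from 0 h was -1.77 ± 0.28 at 8 h, -0.12 ± 0.27 at 24 h, -0.79 ± 0.27 at 48 h, -0.28 ± 0.32 at 72 h, -0.69 ± 0.27 at 96 h and -2.11 ± 0.29 at 120 h. The 2 libraries at 96 h differed so much that they enclosed the whole range seen at 48 h. Only 52 FOXD3 counts stood behind the shallow 0 h replicate 1. Without the 4 libraries in doubt the differences, in the same order of time, were -1.82, -0.17, -0.82, -0.30, -0.70 and -2.14.

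FOXD3-AS1 showed no such return under Wnt3a. Its level was 38.2 and 41.6 CPM at 0 h, 33.2 and 38.6 CPM at 8 h, 27.4 and 25.6 CPM at 24 h, 13.3 and 18.3 CPM at 48 h, 16.0 CPM at 72 h, 13.5 and 13.3 CPM at 96 h and 6.03 and 6.42 CPM at 120 h. The 8 h libraries overlapped those at 0 h, and from 24 h every library was below both. From 48 to 96 h the levels lay in 1 range with overlapping libraries, and those at 120 h were lower than all before them. The log2 difference from 0 h was -0.16 ± 0.17 at 8 h, -0.60 ± 0.18 at 24 h, -1.32 ± 0.18 at 48 h, -1.33 ± 0.23 at 72 h, -1.59 ± 0.18 at 96 h and -2.69 ± 0.20 at 120 h. Without the libraries in doubt these were -0.20, -0.64, -1.35, -1.36, -1.60 and -2.72.

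After doxycycline in the bcat arm both genes were lower at every time, with the largest differences at 48 and 72 h. FOXD3 stood at 4.70 and 5.67 CPM at 0 h, 2.38 and 2.65 CPM at 8 h, 2.10 and 1.33 CPM at 16 h, 2.30 and 2.23 CPM at 24 h, 0.342 and 0.523 CPM at 48 h and 0.0743 and 0.316 CPM at 72 h. From 8 to 24 h the group means lay between 1.72 and 2.52 CPM, a plateau that was followed by much lower libraries at 48 h. The log2 difference from 0 h was -1.10 ± 0.34 at 8 h, -1.53 ± 0.34 at 16 h, -1.23 ± 0.33 at 24 h and -3.71 ± 0.47 at 48 h. At 72 h the 2 libraries held 4 FOXD3 counts, and the difference was -4.87 ± 0.54, or -6.06 without replicate 2, which leaves 1 count. Without the libraries in doubt the differences at 8, 16, 24, 48 and 72 h were -1.18, -1.63, -1.34, -4.01 and -4.96.

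FOXD3-AS1 had no plateau in the bcat arm. Its level was 25.0 and 35.1 CPM at 0 h, 18.6 and 23.9 CPM at 8 h, 14.5 and 9.62 CPM at 16 h, 6.84 and 8.12 CPM at 24 h, 0.969 and 0.784 CPM at 48 h and 0.594 and 0.633 CPM at 72 h. Each time's libraries lay below those of the time before without overlap. The log2 difference from 0 h was -0.55 ± 0.18 at 8 h, -1.31 ± 0.19 at 16 h, -2.02 ± 0.19 at 24 h, -5.07 ± 0.27 at 48 h and -5.64 ± 0.29 at 72 h. Without the libraries in doubt, among them the lower of the 0 h libraries, these were -0.73, -1.50, -2.11, -5.15 and -5.82.

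**Figure D3:**
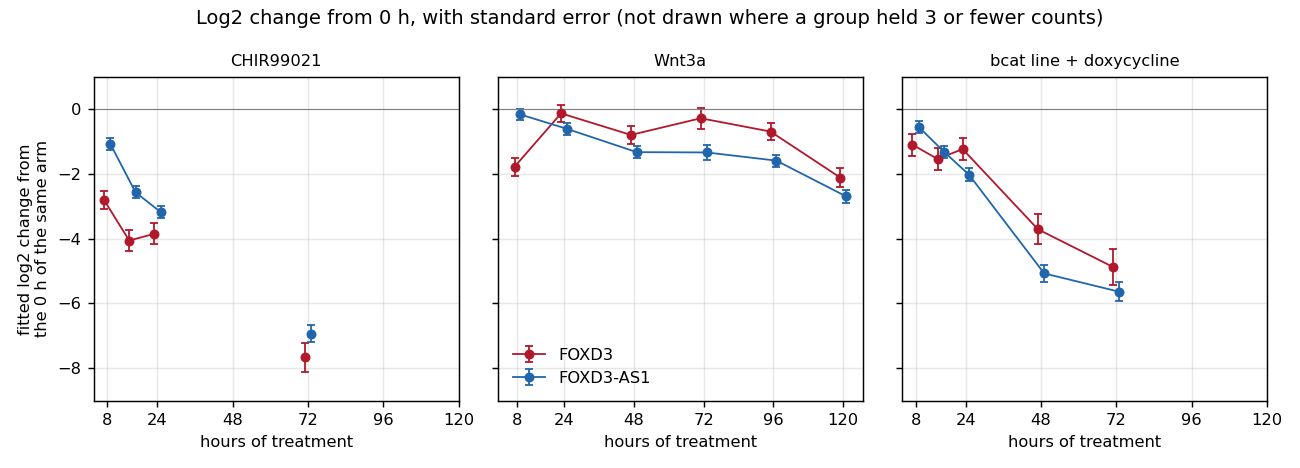
Fitted log2 difference of FOXD3 and FOXD3-AS1 from the 0 h group of the same arm, with its standard error, against hours of treatment. The standard error is too small where counts are few. Groups with 3 or fewer counts are not drawn, which leaves out both genes at 48 h of CHIR99021. At 8 h FOXD3 lies below FOXD3-AS1 in all 3 arms, and from 24 h of Wnt3a and of doxycycline the order is the other way round.

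Each gene was lower than both 0 h libraries, in every library, at 15 of the 16 treated times. The exceptions were FOXD3 at 24 h of Wnt3a and FOXD3-AS1 at 8 h of Wnt3a. The times of 1 arm share their 0 h libraries, so these counts are not independent. Among the 24304 genes tested, every library was lower than both 0 h libraries in 33.7% at 8 h, 31.9% at 16 h, 31.6% at 24 h, 33.7% at 48 h and 32.7% at 72 h of CHIR99021. The shares were 16.2% at 8 h, 24.3% at 24 h, 22.8% at 48 h, 30.5% at 72 h, 29.1% at 96 h and 26.7% at 120 h of Wnt3a. For the bcat arm they were 22.4% at 8 h, 19.7% at 16 h, 20.4% at 24 h, 22.8% at 48 h and 24.5% at 72 h. Separation of so few libraries was thus common, and since the pair was chosen on these levels nothing is read from it.

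The step between 8 and 24 h set the Wnt3a arm apart from the others for FOXD3. FOXD3 at 24 h differed from 8 h by 1.65 ± 0.27 on the log2 scale under Wnt3a, by -1.04 ± 0.33 under CHIR99021 and by -0.13 ± 0.31 in the bcat arm. Both 24 h libraries were above both 8 h libraries under Wnt3a and below them in the other arms, though the step of the bcat arm was smaller than its SE. How many of all genes separated in this way at this step was not counted, so nothing is read from the separation. The log2 values without the libraries in doubt were 1.65, -1.07 and -0.17. Without the CHIR99021 24 h replicate 2 the step in that arm was -1.79. For FOXD3-AS1 the same step was -0.44 ± 0.17 under Wnt3a, -2.10 ± 0.20 under CHIR99021 and -1.47 ± 0.18 in the bcat arm, so the antisense RNA was lower at 24 h than at 8 h in each. The differences between arms were not tested, since all of these libraries were used in choosing the pair.

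The balance between the antisense and the sense counts moved with time. Per FOXD3 count there were 2.42 and 2.37 FOXD3-AS1 counts at 0 h of the CHIR99021 arm and 2.27 and 2.26 at 0 h of the Wnt3a arm. At 8 h the ratio was 7.50 and 8.67 under CHIR99021 and 7.56 and 6.53 under Wnt3a, and all 4 libraries lay above every 0 h library of the unmodified cells. Under CHIR99021 it was 7.63 and 6.28 at 16 h, 6.29 and 3.21 at 24 h and 2.98 in the 72 h replicate 1. Under Wnt3a the ratio was below its 0 h value from 24 h on, at 1.62 and 1.62 at 24 h, 1.58 and 1.54 at 48 h, 1.09 at 72 h, 0.965 and 1.64 at 96 h and 1.34 and 1.73 at 120 h. Among libraries with 4 or more FOXD3 counts, only the Wnt3a 96 h replicate 1 held more FOXD3 than FOXD3-AS1 counts. The ratio of the bcat arm began high, at 5.29 and 6.19 at 0 h, and was 7.82 and 9.01 at 8 h, 6.91 and 7.20 at 16 h, 2.97 and 3.64 at 24 h and 2.77 and 1.60 at 48 h. The counts are not per base of transcript, so a ratio above 1 does not say that the antisense RNA had more molecules.

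**Figure D4:**
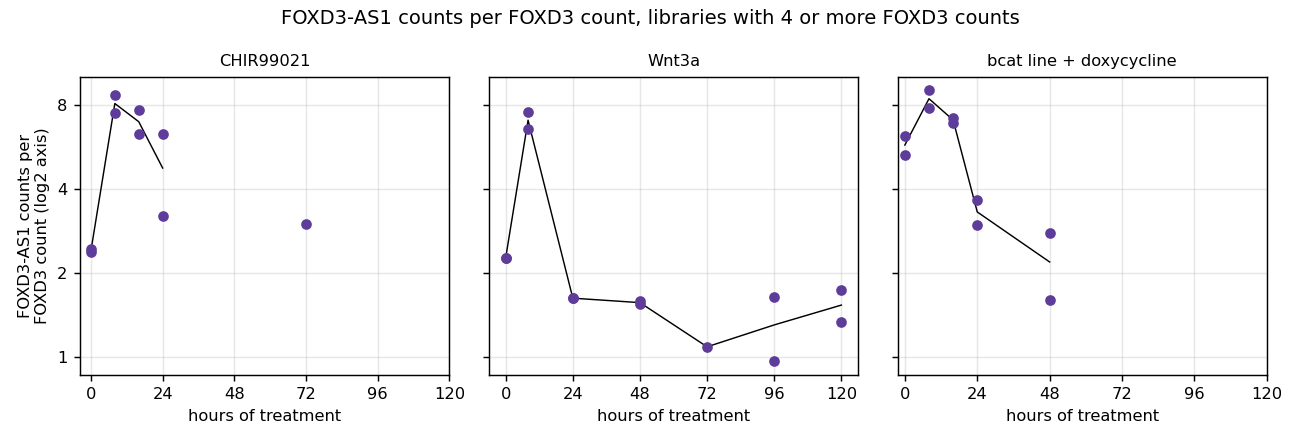
FOXD3-AS1 counts per FOXD3 count on a log2 axis against hours of treatment, 1 point per library, for libraries with 4 or more FOXD3 counts. The group mean of the ratio is highest at 8 h in all 3 arms, and the ratio lies between 0.965 and 1.73 from 24 h of Wnt3a on.

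Before any treatment the pair was lower in the bcat line than in the unmodified cells. FOXD3 averaged 5.19 ± 0.683 CPM in the uninduced bcat line, against 19.5 ± 0.576 CPM at 0 h of CHIR99021 and 17.6 ± 1.16 CPM at 0 h of Wnt3a (SD, n = 2 each). FOXD3-AS1 averaged 30.0 ± 7.14 CPM in that line, against 46.7 ± 0.704 and 39.9 ± 2.46 CPM. No 0 h library of the bcat line overlapped those of the unmodified cells for either gene, and the deeper of its 0 h libraries gave 5.67 CPM of FOXD3 and 35.1 CPM of FOXD3-AS1. The other is among the libraries in doubt and held 16 FOXD3 counts. How many of all genes separated in this way was not counted, so nothing is read from the separation. The construct, the history of the line and the arm cannot be told apart here.

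Ordered over all 19 groups, FOXD3 was highest at 0 h of CHIR99021, followed by 0 h and 24 h of Wnt3a, whose libraries overlapped. Next came 72 h of Wnt3a and then 96 and 48 h of Wnt3a, which overlapped each other. A middle set of 0 h of the bcat line, 8 h of Wnt3a and 120 h of Wnt3a, each overlapping its neighbour, lay between 3.71 and 5.91 CPM. Below it were 8 h of CHIR99021 and 8 h of the bcat arm, which overlapped, then 24 h of the bcat arm, and then 16 h of the bcat arm with 24 and 16 h of CHIR99021, which overlapped in turn. The lowest were 48 h of the bcat arm and, with overlapping libraries, 72 h of the bcat arm, 72 h of CHIR99021 and 48 h of CHIR99021. FOXD3-AS1 had the same group on top and the same group at the bottom. Its second set, 0 and 8 h of Wnt3a, 0 h of the bcat line and 24 h of Wnt3a, overlapped from neighbour to neighbour, as did 8 h of CHIR99021 with 8 h of the bcat arm. The next set was 72, 48 and 96 h of Wnt3a with 16 h of the bcat arm, and then 16 h of CHIR99021 with 24 h of the bcat arm. The remaining groups, 120 h of Wnt3a, 24 h of CHIR99021, 48 and 72 h of the bcat arm and 72 h of CHIR99021, followed in that order without overlap.

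Over the 37 libraries the log2 CPM values of the 2 genes had a Pearson r of 0.904. These libraries share 3 time courses, so r describes their common course and is given without a test. Among the 15775 genes with a mean of at least 1 CPM, FOXD3-AS1 was in position 7 of the genes most like FOXD3, and FOXD3 in position 40 of those most like FOXD3-AS1. The 5 genes most like FOXD3 were FLT1 at 0.926, which codes for a VEGF receptor, OTX2 at 0.920, a homeobox factor, GABRA5 at 0.916, a GABA receptor subunit, KLHDC7A at 0.910 and PDZD4 at 0.908. Those most like FOXD3-AS1 were SCNN1A at 0.958, an epithelial sodium channel subunit, the unnamed locus XXbac-BPG27H4.8 at 0.954, FLT1 at 0.952, NRN1L at 0.951 and CRB3 at 0.950, which codes for an apical polarity protein. The core pluripotency factors were less like either gene. For FOXD3 the r was 0.803 with NANOG, 0.705 with POU5F1 and 0.492 with SOX2, and for FOXD3-AS1 it was 0.899, 0.882 and 0.700 with the same factors.

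FLT1 averaged 8.08 CPM at 48 h and 9.37 CPM at 72 h of CHIR99021, against 142 CPM at 0 h. Its mean in the bcat arm was 8.82 CPM at 72 h, against 128 CPM at 0 h, while in the Wnt3a arm its lowest mean was 51.1 CPM at 120 h, against 105 CPM at 0 h. OTX2 had its lowest mean at 48 h of CHIR99021, at 0.720 CPM against 40.6 CPM at 0 h. Unlike FOXD3, its mean under Wnt3a lay above the 37.9 CPM of 0 h from 24 h on, with 57.0 CPM at 24 h, 169 CPM at 96 h and 52.1 CPM at 120 h.

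Of the pluripotency genes that were listed beside FOXD3, most fell by 72 h in each arm. The list was chosen with earlier results of these data known, so its counts beside the shares of all genes are a description only. All 24 listed genes passed the filter on low counts, and each comparison was tested against its own 0 h with edgeR's quasi-likelihood test. The Wnt3a 72 h group is 1 library, which the test assumes to vary like the other groups, so all calls at that time rest on a spread taken from them. Under CHIR99021, 15 fell and 1 rose at 24 h, with a median log2 change of -0.76, and 21 fell and 1 rose at 72 h, with a median of -2.22. The medians over all genes tested were -0.01 and 0.00. Of all genes, 5.91% rose and 8.61% fell at 24 h, and 11.5% rose and 13.4% fell at 72 h. Under Wnt3a, 12 fell and 2 rose at 24 h, 15 fell and 2 rose at 72 h and 17 fell and 2 rose at 120 h, with medians of -0.38, -0.87 and -1.61, beside medians of 0.04, 0.01 and 0.00 over all genes. Without the Wnt3a 0 h replicate 2, which leaves the shallow library alone at 0 h, 9 of the genes were called at 24 h in place of 14. The shares of all genes were 9.32% higher and 10.9% lower at 24 h, 8.43% higher and 7.94% lower at 72 h, and 12.2% higher and 15.6% lower at 120 h. In the bcat arm, 15 fell and 2 rose at 24 h and 22 fell and 1 rose at 72 h, with medians of -0.64 and -2.19, beside 0.09 and 0.06 over all genes, of which 6.87% rose and 5.95% fell at 24 h and 13.6% rose and 13.6% fell at 72 h.

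POU5F1, NANOG and SOX2, the core factors of the pluripotent state, stood at 73.6% to 132% of their 0 h means at 24 h of CHIR99021, when FOXD3 stood at 6.31% and FOXD3-AS1 at 11.0% of theirs. At 24 h of CHIR99021, POU5F1 averaged 731 ± 58.4 CPM against 980 ± 7.65 CPM at 0 h, a log2 change of -0.42 ± 0.10 (adjusted p = 0.00503, edgeR) that was not called without the 24 h replicate 1, and NANOG 105 ± 17.9 CPM against 80.1 ± 3.83 CPM, a change of 0.40 that missed the threshold (adjusted p = 0.288, edgeR). SOX2 changed by -0.44 ± 0.15 (adjusted p = 0.0455, edgeR), a call lost when any 1 of the 4 libraries was left out. At 72 h of CHIR99021 all 3 factors had fallen, POU5F1 by 1.34, NANOG by 3.18 and SOX2 by 2.78 on the log2 scale (adjusted p = 2.43e-11, 1.08e-09 and 2.31e-14 by edgeR). The means of all 3 were lower at 48 h than at 72 h. POU5F1, NANOG and SOX2 stood at 11.1%, 0.819% and 4.27% of 0 h at 48 h, and at 39.6%, 11.6% and 14.8% at 72 h.

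Under Wnt3a, POU5F1 and NANOG did not pass the test at 24 h, with log2 differences of -0.08 and 0.51 (adjusted p = 0.653 and 0.126 by edgeR), while SOX2 fell by 0.78 (adjusted p = 4.13e-04). At 120 h all 3 had fallen, by 1.37, 1.70 and 1.51 for POU5F1, NANOG and SOX2. In the bcat arm POU5F1 fell by 0.56 at 24 h (adjusted p = 3.23e-04 by edgeR), and the differences of NANOG and SOX2 were -0.24 and 0.38 (adjusted p = 0.590 and 0.0989). With no filter on low counts SOX2 was called higher there, at 0.44 (adjusted p = 0.0278 by edgeR). At 72 h POU5F1 fell by 2.15, NANOG by 4.18 and SOX2 by 1.59, and FOXD3 stood at 3.77% and FOXD3-AS1 at 2.04% of their 0 h means.

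**Figure D5:**
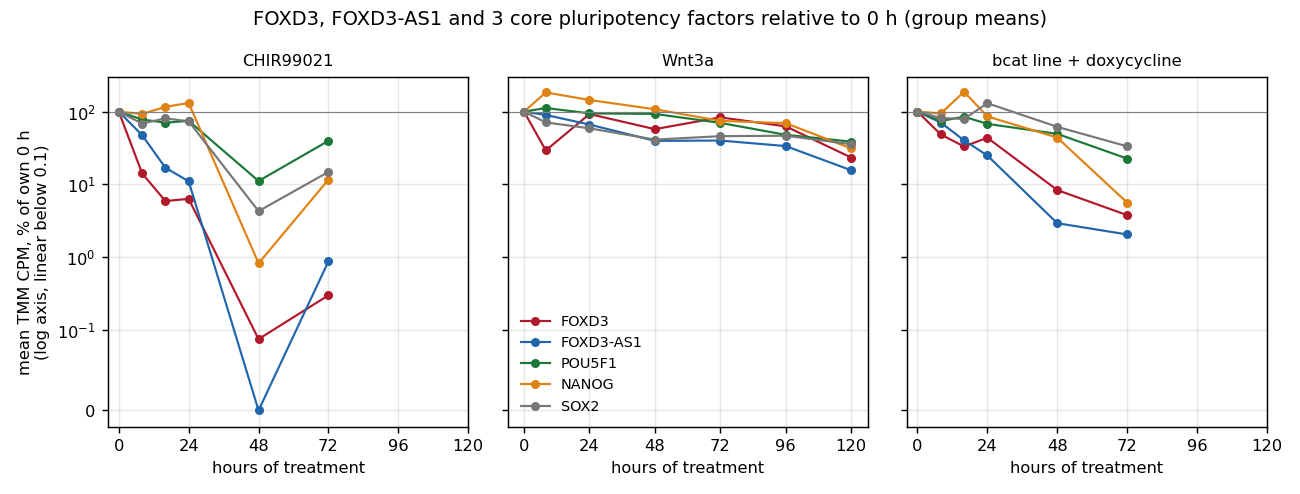
Group mean CPM as a percent of the 0 h mean of the same arm for FOXD3, FOXD3-AS1, POU5F1, NANOG and SOX2, against hours of treatment. At 8 h of CHIR99021 FOXD3 is at 14.2% and FOXD3-AS1 at 47.5%, with POU5F1 at 78.0%, NANOG at 92.7% and SOX2 at 68.4%.

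Other listed pluripotency genes fell as well. TERF1, which codes for a telomere protein, fell by 2.45 ± 0.14 at 24 h of CHIR99021, to 84.2 ± 4.71 CPM against 462 ± 20.3 CPM at 0 h (adjusted p = 4.34e-14, edgeR). It fell by 1.68 at 24 h, 2.44 at 72 h and 2.76 at 120 h of Wnt3a. PRDM14, a repressor that helps to hold the pluripotent state, fell by 2.16 ± 0.21 at 24 h and by 4.32 ± 0.23 at 72 h of CHIR99021, and by 1.44 ± 0.20 at 24 h and 2.13 ± 0.26 at 72 h of Wnt3a. THY1, a surface protein of human pluripotent cells, fell by 2.62 at 24 h of CHIR99021, 2.75 at 120 h of Wnt3a and 2.39 at 24 h of the bcat arm. DNMT3B, a DNA methyltransferase, fell by 1.84 ± 0.10 at 24 h of Wnt3a, and DPPA2 by 3.15 ± 0.43 at 120 h. In the bcat arm GDF3, a TGF-beta family ligand, fell by 2.68 and the long noncoding RNA LINC-ROR by 2.05 at 24 h, and TDGF1, a Nodal co-receptor, fell by 5.33 ± 0.22 at 72 h (adjusted p = 1.19e-17, edgeR). OTX2 fell by 4.42 at 72 h of CHIR99021. UTF1, a chromatin factor of pluripotent cells, was called lower there at 0.0581 ± 0.0276 CPM against 1.78 ± 0.333 CPM, and was at 0 counts at 72 h of the bcat arm, against 1.12 CPM at 0 h. UTF1 was also called lower at 72 h of Wnt3a, at 0.0630 CPM in the 1 library against 0.624 CPM (adjusted p = 0.0386, edgeR), a call lost when either 0 h library was left out.

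Some of the listed genes that rose are named after their values were seen. OTX2 rose by 0.56 at 24 h and 2.01 at 72 h of Wnt3a, FGF2 by 0.42 at 24 h of Wnt3a, SALL4 by 0.33 at 120 h of Wnt3a and VRTN by 0.40 at 24 h of the bcat arm.

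FOXD3 is also a neural crest factor, and of the other listed genes of the crest and the neural plate border some rose and some fell in each arm. The genes named in the next paragraph had the largest changes and all rose there, so most that fell are counted here without a name. Of 21 listed genes 20 were in the table and 17 passed the filter. Under CHIR99021, 5 rose and 3 fell at 24 h, and 8 rose and 4 fell at 72 h, with median log2 changes of 0.21 and 1.71. Under Wnt3a, 3 rose and 1 fell at 24 h, 8 rose and 3 fell at 72 h and 6 rose and 4 fell at 120 h, with medians of 0.86, 1.13 and 0.61. Without the Wnt3a 0 h replicate 2 the genes called numbered 5 in place of 11 at 72 h, again with 1 library, and 4 in place of 10 at 120 h, and without the Wnt3a 24 h replicate 2 they numbered 2 in place of 4 at 24 h. With the libraries of the Wnt3a arm only, 7 were called at 72 h. After doxycycline, 8 rose and 1 fell at 24 h and 9 rose and 2 fell at 72 h, with medians of 1.02 and 4.04, which include genes at 0 counts at 0 h. The all-gene shares and medians are those given above for the same comparisons.

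GBX2, a homeobox factor of the plate border, averaged 70.5 ± 9.09 CPM at 24 h of CHIR99021 against 2.74 ± 0.316 CPM at 0 h, a rise of 4.67 ± 0.25 (adjusted p = 1.56e-14, edgeR), and in the bcat arm 76.6 ± 8.88 CPM at 24 h and 33.9 ± 2.24 CPM at 72 h against 0.107 CPM at 0 h. MSX1 averaged 150 ± 10.3 CPM at 72 h of CHIR99021 against 0.524 ± 0.113 CPM, 134 ± 7.78 CPM at 72 h of the bcat arm against 0.214 CPM, and 29.7 ± 2.79 CPM at 120 h of Wnt3a against 0.0734 CPM. ZIC1 rose by 3.29 at 24 h and 6.41 at 72 h of CHIR99021, and in the bcat arm it averaged 7.74 ± 2.52 CPM at 24 h and 162 ± 38.7 CPM at 72 h, with 0 counts at 0 h. PAX3, a paired-box factor of the crest, rose by 5.95 ± 0.48 at 72 h of CHIR99021. MSX2 rose by 7.21 ± 0.44 at 120 h of Wnt3a. NGFR, a surface marker of crest cells, rose by 2.01 ± 0.29 at 24 h of Wnt3a, GBX2 by 1.19 ± 0.34 there, and TWIST1 reached 0.674, 3.37 and 2.70 CPM at 24, 72 and 120 h of Wnt3a, against 1 count at 0 h. PAX7 was called higher at 72 h of Wnt3a at 0.661 CPM, and DLX5 at 24 h of the bcat arm at 1.16 ± 0.625 CPM, with 0 counts at 0 h. At 24 h of Wnt3a the call of TWIST1 was lost without the 0 h or the 24 h replicate 2, and that of GBX2 when either 24 h library was left out. The call of PAX7 was lost without the 0 h replicate 2, and that of DLX5 without the 24 h replicate 1 or when either 0 h library was left out.

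SOX10 and TFAP2A, factors of early and migrating crest cells, were at low levels in these comparisons and are named after their values were seen. SOX10 averaged 0.155 ± 0.219 CPM at 72 h of CHIR99021 against 0.842 ± 0.0181 CPM at 0 h, where it fell (adjusted p = 0.0162, edgeR), and did not pass the test in the other 6 comparisons. TFAP2A passed the test once, at 120 h of Wnt3a, with 0.863 ± 0.294 CPM against 0.0220 CPM at 0 h (adjusted p = 0.00850, edgeR). NGFR fell under CHIR99021, by 1.99 at 24 h and 2.72 at 72 h.

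The family members nearest to FOXD3 stayed at low levels. Of 9 listed FOXD genes and antisense RNAs 8 were in the table, and 3 passed the filter. FOXD1 rose at 24 h of CHIR99021, with 2.27 ± 0.108 CPM against 0.561 ± 0.416 CPM at 0 h (adjusted p = 0.0210, edgeR). FOXD2 was called higher at 72 and 120 h of Wnt3a, at 0.409 and 0.550 CPM with 0 counts at 0 h. FOXD2-AS1 was called higher at 72 h of CHIR99021 (0.580 against 0.0799 CPM), 120 h of Wnt3a (0.440 against 0.0220 CPM) and 72 h of the bcat arm (0.307 CPM, with 0 counts at 0 h). Each of these 6 calls was lost when some 1 library was left out: FOXD1 without the 0 h replicate 2 or either 24 h library, FOXD2 in both comparisons and FOXD2-AS1 at 120 h without the Wnt3a 0 h replicate 2, FOXD2-AS1 at 72 h of CHIR99021 without the 0 h replicate 2, and FOXD2-AS1 in the bcat arm when any 1 of its 4 libraries was left out. No 0 h library exceeded 0.148 CPM of FOXD2 or 0.101 CPM of FOXD2-AS1, so both passed the filter only through treated libraries. For FOXD2 these were late Wnt3a libraries alone, as it reached at most 0.309 CPM in the other arms. Calls of higher for FOXD2 and FOXD2-AS1 were thus partly set by the filter, and nothing is read from them.

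Of the 5 nearest annotated genes on each side of FOXD3 on chromosome 1, 7 passed the filter. At most 1 was called higher and 1 lower in any comparison, which at 72 h of CHIR99021 and 120 h of Wnt3a is near the share of all genes given above. ALG6, a glycosyltransferase gene that starts 44.5 kb downstream, fell by 0.49 at 24 h and 0.48 at 72 h of CHIR99021 and by 0.75, 0.58 and 0.52 at 24, 72 and 120 h of Wnt3a. ITGB3BP, a centromere protein gene that overlaps EFCAB7 on the other strand, rose by 0.42 at 72 h of CHIR99021 and 0.59 at 72 h of the bcat arm. Each of these calls was lost when some 1 library was left out. For ALG6 this was the Wnt3a 0 h replicate 2, at 120 h also the 120 h replicate 1, and under CHIR99021 any of the 4 libraries. For ITGB3BP it was the 72 h replicate 1 in both arms, either 0 h library of CHIR99021 and the bcat 0 h replicate 1.

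The RNA came from whole cultures, so fewer cells of a type and less RNA per cell cannot be told apart. Markers of other cell types moved in the same libraries. The summed level of the stem cell list was 2113 to 2152 CPM at 72 h of CHIR99021, 2616 to 2759 CPM at 120 h of Wnt3a and 1790 to 1981 CPM at 72 h of the bcat arm. Most of each sum was LIN28A alone, at 1433 to 1508, 1654 to 1857 and 1210 to 1379 CPM in the same order. The mesoderm list summed to 332 to 384 CPM at 72 h of CHIR99021 against 1.31 to 1.84 CPM at 0 h, and to 136 to 176 CPM at 72 h of the bcat arm, and stayed at or below 18.2 CPM under Wnt3a. The endoderm list summed to 108 to 183 CPM at 120 h of Wnt3a against 0.0881 to 0.323 CPM at 0 h, and to at most 2.59 and 1.71 CPM under CHIR99021 and in the bcat arm. The neural crest marker list, of 6 genes, summed to 38.1 to 39.4 CPM at 48 h of CHIR99021, with SOX10 at 0, and to 48.6 to 56.4 CPM at 72 h of the bcat arm. The neural ectoderm list never exceeded 1.54 CPM, with PAX6 at 0 at 72 h of CHIR99021 and of the bcat arm, and SOX17 of the endoderm list was at 0 at 72 h of CHIR99021. In addition, the amnion and trophoblast list lay between 36.3 and 39.0 CPM at 120 h of Wnt3a. The same list summed to 26.9 to 27.9 CPM at 0 h of the bcat line, but there GATA3 and CGA were at 0 and nearly all of it was TFAP2C. The part of these cell types in the FOXD3 and FOXD3-AS1 levels was not tested.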

How the data were processed

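Per the submitters' processing notes, the authors assigned reads to transcripts with kallisto 0.43.0. The deposited gene table thus holds estimated counts. Which build and annotation were used, how transcripts were summed to genes and whether strand counted is not given in the sources used here. Each deposited column equalled estimated counts times 1 constant per library, from 0.265 to 6.58. Columns were divided by it, after which 56.9% to 81.3% of values up to 20 lay within 0.1 of a whole number, and rounded. The identical Wnt3a 72 h columns entered as 1 library. SNAI2 and FOXD4L3 are not analysed here, some further genes of the lists are counted but not reported by name here, and 27 symbols had become dates.

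Levels are CPM on TMM-scaled totals. One fit of 19 group means in edgeR 4.0.16 (R 4.3.3; quasi-likelihood, trended dispersion, robust) covered 37 libraries and 24304 genes that passed its low-count filter, with 18 residual degrees of freedom. Benjamini-Hochberg adjustment ran over all genes in each comparison, with calls under 0.05. Each SE is the absolute log2 difference over the square root of the F statistic of the quasi-likelihood test. It can be smaller than counting error alone where counts are few. The method was tested on simulated data. FOXD3 and FOXD3-AS1 were not tested: planned tests in the Wnt3a arm are not reported, since the choice of the pair rests on all libraries. List genes were tested in 7 comparisons: 24 and 72 h of each arm and 120 h of Wnt3a. The members and lists were chosen with earlier results of these data known. Genes named were the core factors, the 3 largest changes per list and comparison among those called, and the 5 highest r, with a prior count of 2 on the log scale. Alternatives were RLE scaling, DESeq2 1.42.0, no count filter, undivided values, ribosomal RNA removed, a replicate block, fits by arm, the 4 doubtful libraries left out, and each library left out in turn with the gene set and dispersion trend of the whole fit. Neighbouring genes and exons came from GENCODE 29, and promoter sequence from RefSeq, GRCh38.p14. Intervals cover counting error only, and the total count of each library limits their precision.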

Additional observations from a re-analysis of the deposited data

Results flagged for a closer look

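FOXD3 at 24 h differed from 8 h by 1.65 on the log2 scale under Wnt3a, where both 24 h libraries were above both 8 h libraries. Under CHIR99021 both 24 h libraries were below both 8 h libraries, at -1.04 (-1.79 to -0.74 with 1 library left out). In the bcat arm they were also below, but the step of -0.13 was smaller than its SE of 0.31. The difference between the arms was not tested.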

How the results depend on the processing

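The results were recomputed under 9 other settings and with each library left out in turn, and no called value and no difference from 0 h changed its sign. Of 405 values of FOXD3 and FOXD3-AS1 under the other settings, 7 moved by more than the spread between replicates. The largest move was 0.637, to -8.30 for FOXD3 at 72 h of CHIR99021 with values not divided. For FOXD3-AS1 at 8 h of CHIR99021 (-1.07), whose replicates were nearly equal, the value was -1.02 under RLE scaling, -1.02 without the 4 libraries in doubt, -1.02 under DESeq2 and -1.04 with the libraries of the arm only. With 1 library left out, FOXD3 ranged from -4.60 to -3.55 at 24 h of CHIR99021 and from -6.06 to -4.05 at 72 h of the bcat arm, and FOXD3-AS1 from -7.05 to -6.63 at 72 h of CHIR99021. The FOXD3 step from 8 to 24 h of CHIR99021 ranged from -1.79 to -0.74. Small log2 steps within the Wnt3a arm, not printed in the report, lay on either side of 0: FOXD3 at 96 h against 48 h from -0.34 to 0.43, and FOXD3-AS1 at 72 h against 48 h from -0.20 to 0.27 and at 96 h against 48 h from -0.45 to 0.013. No value could be had for FOXD3 at 48 or 72 h of CHIR99021 without replicate 1 or for FOXD3-AS1 at 48 h, where no count remained. The pluripotency genes called at 24 h of Wnt3a ranged from 9 to 12, against 14 with all libraries, and the neural crest genes called at 72 h of Wnt3a were 7 in place of 11 with the libraries of the arm only. Counts over all genes were lower with 1 library left out: 2146 to 2232 in place of 3529 at 24 h of CHIR99021, and without the Wnt3a 0 h replicate 2, 2447 in place of 4915 at 24 h, 2586 in place of 3978 at 72 h and 3677 in place of 6772 at 120 h. At 24 h of Wnt3a they were 3216 without the 24 h replicate 1 and 2893 without the 24 h replicate 2. At 24 h of the bcat arm they were 1616 in place of 3117 without the libraries in doubt, 1930 without the 0 h replicate 2 and 1948 without the 24 h replicate 1. Fewer libraries entered these fits, and any further cause was not tested. Of 679 list gene values under the other settings, 27 calls in 10 genes were lost and 1 was gained, that of SOX2 at 24 h of the bcat arm, and of 282 with 1 library left out, 44. Same-numbered replicates did not deviate together: over 15 pairs of groups in each arm, r ran from -0.052 to 0.055. With a replicate block, FOXD3 at 8 h of CHIR99021 was -2.80, no FOXD3 or FOXD3-AS1 value moved by more than 0.0771, and 3421 genes were called at 24 h of CHIR99021. The block ended the calls of ALG6, PAX7 and UTF1 at 72 h of Wnt3a and of FOXD2-AS1 at 72 h of the bcat arm. Depth limits the late times: FOXD3 rests on 1 and 6 counts at 48 and 72 h of CHIR99021 and on 4 counts at 72 h of the bcat arm.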
